A study of Mus musculus with 8 samples.

Results

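Collagen genes were followed across 8 spatial transcriptomic sections of embryonic mouse diaphragm, the muscle that drives breathing. The set held every gene whose symbol has the form Col, number, a, number, apart from Col22a1 and Col25a1, and came to 42 of the 19465 genes in the matrices. The symbols alone defined the set. Each section came from its own embryo and was laid flat on an array of spots, in which each spot captured the RNA of several cells. The 3 control sections at embryonic stage E14.5, 2 control sections at E18.5, 1 CaV1.1-/- section at each stage and 1 bCat cKO section at E18.5 were compared. CaV1.1-/- (dysgenic) embryos lack Cacna1s, the voltage sensor of excitation-contraction coupling, in every cell, and their skeletal muscle does not contract. In bCat cKO embryos a Cre driven by the human skeletal actin promoter (HSA) deletes floxed β-catenin in muscle fibres, so other cells keep the gene. Control embryos carried at least 1 functional allele of each gene, and they may have been heterozygous or have carried the Cre. Per the study's methods, bCat cKO embryos came from parents that were also heterozygous for CaV1.1. CaV1.1-/- embryos came from the same kind of cross or from CaV1.1 heterozygotes. Mutant embryos may thus have carried altered alleles of the other gene too.

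Collagens are secreted or membrane proteins built of chains wound into a triple helix. Fibrillar collagens form the load-bearing fibrils of tendon and of the connective tissue that wraps muscle, network collagens such as type IV build the basement membrane around each fibre and vessel, type VI forms beaded filaments between them, and FACIT collagens decorate the surface of fibrils. In a muscle of this kind the fibres anchor in the central tendon, and tendon cells and fibroblasts make most of the fibrillar chains.

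Spots were sorted by genes other than collagens, with a cut set within each section. Muscle spots were those high in 9 contractile genes, and tendon-rich spots were non-muscle spots high in Scx, Tnmd, Mkx, Fmod and Thbs4. The sections held 491 to 3092 muscle spots, 44 to 143 tendon-rich spots and 58 to 461 other spots. Between 14179161 and 82859104 unique molecules (UMIs) were counted per section, with a median of 16423 to 45284 per kept spot. UMIs were summed per section and position. Levels are UMI counts divided by the total of the sum and scaled by TMM, in the usual CPM unit, a scaling that sets each sum relative to the bulk of genes, and a gene was called at an adjusted p under 0.05. Differences are log2 fold changes with their standard error (SE). The mutant groups held a single section each, which was assumed to vary as the controls do. Of the 42 genes, 41 passed the filter on low counts in muscle and 38 in tendon-rich spots. Col10a1, a chain of hypertrophic cartilage, was below it in both, with 19 UMIs over all muscle spots, and Col4a3, Col6a4 and Col7a1 were below it in tendon-rich spots, with 25, 13 and 18 UMIs in all.

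The targeted genes were read first. Cacna1s in muscle spots was 19.0, 17.7 and 21.6 CPM in controls at E14.5 and 15.8 CPM in the CaV1.1-/- section of that stage. At E18.5 it was 104.0 and 108.6 CPM in controls, 34.8 CPM in CaV1.1-/- and 85.8 CPM in bCat cKO. Ctnnb1, which encodes β-catenin, was 129.0 and 121.1 CPM in E18.5 controls and 117.4 CPM in bCat cKO (adjusted p = 0.68). Where the probes lie relative to the mutations is not given in the sources used here, and non-muscle cells keep Ctnnb1, so neither value checks the label.

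The 42 genes together made up 1.70% to 2.25% of all UMIs in muscle spots of every section. In tendon-rich spots the share was 5.03%, 4.84% and 6.04% in controls at E14.5 and 11.1% and 14.3% at E18.5. The CaV1.1-/- section held 2.68% at E14.5 and 6.17% at E18.5, in each case below every control section of its stage, and bCat cKO held 11.1%. Most of the share came from 3 genes, Col1a1, Col1a2 and Col3a1. Together they held 4.05%, 3.87% and 4.91% in control tendon-rich spots at E14.5 and 9.25% and 11.8% at E18.5. In CaV1.1-/- they held 2.11% and 4.89% at the 2 stages, and 9.17% in bCat cKO. These are values per section with no test. The CaV1.1-/- tendon-rich spots also held less of the tendon genes that defined them, as given below. In summed spots, fewer cells of a type and less RNA per cell cannot be told apart.

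**Figure D1:**
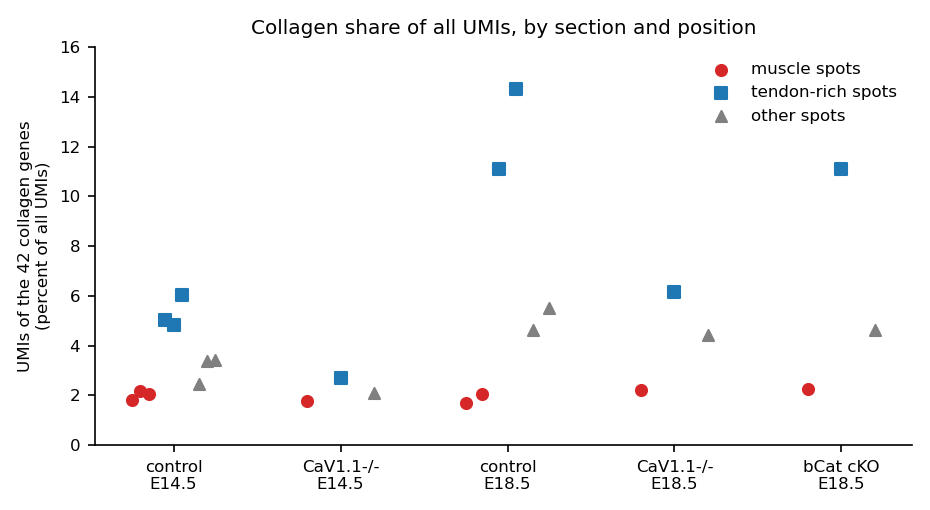
Share of all UMIs that fell on the 42 collagen genes (vertical axis, percent) in each section, by group (horizontal axis). Red circles are muscle spots, blue squares tendon-rich spots and grey triangles other spots. Muscle spots lie between 1.70% and 2.25% in all 8 sections, while tendon-rich spots reach 11.1% and 14.3% in E18.5 controls. Of these, Col1a1, Col1a2 and Col3a1 alone hold 9.25% and 11.8%.

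Several of these genes lie next to each other in the genome (GRCm38). Col4a1 (chromosome 8, 11198423 to 11312826, minus strand) and Col4a2 (chromosome 8, 11312805 to 11449287, plus strand) start head to head, with 21 bases between their start sites. The start sites of Col4a3 and Col4a4 lie 72 bases apart and those of Col4a5 and Col4a6 lie 1309 bases apart, again on opposite strands. Col3a1 and Col5a2 neighbour each other on chromosome 1 with a gap of 24615 bases.

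The bases before the start site are shown for Col11a1 and Col16a1, because both genes were among those with the greatest excess in tendon-rich spots at E18.5, and because they carry the CCAAT box, a common promoter motif, on opposite strands. Both run 5′ to 3′ on the gene's strand, from RefSeq (GRCm38.p6), and capitals mark CCAAT or its reverse complement ATTGG. The motif begins 79 bases before the start of Col11a1, which is on the plus strand (chr3:114030290-114030539), and 113 bases before that of Col16a1, also on the plus strand (chr4:130047590-130047839).
Col11a1: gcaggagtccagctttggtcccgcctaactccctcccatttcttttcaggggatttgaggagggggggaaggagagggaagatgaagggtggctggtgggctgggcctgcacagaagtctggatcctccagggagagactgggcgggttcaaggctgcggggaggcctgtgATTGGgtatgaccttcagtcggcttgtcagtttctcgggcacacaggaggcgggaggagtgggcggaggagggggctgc
Col16a1: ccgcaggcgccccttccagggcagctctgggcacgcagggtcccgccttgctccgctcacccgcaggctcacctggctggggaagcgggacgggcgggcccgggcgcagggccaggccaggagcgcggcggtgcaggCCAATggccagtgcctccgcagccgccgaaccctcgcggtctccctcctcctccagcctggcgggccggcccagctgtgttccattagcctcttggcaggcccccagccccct
Of the 34 collagen genes with an entry in the table, 12 (35.3%) held CCAAT on either strand in these 250 bases, against 33.8% of 32851 windows of that length. TATAA on the gene's strand was in 7 (20.6%), against 16% of all windows. A collagen gene with several windows counted if any of them held the motif, whereas the shares over all are per window. These are letter matches only, and with that difference in counting their shares lay close to those of all windows.

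Most fibrillar genes were higher in tendon-rich than in muscle spots of the control sections, 10 of 11 at E14.5 and 9 of 11 at E18.5. Of the 8 genes of the FACIT group tested, 6 were higher and 2 lower at E14.5, and 4 were higher and 1 lower at E18.5. Over all families at E14.5, 21 of the 38 genes tested were higher and 8 lower, where 13.1% and 22.0% of all genes tested were higher and lower. At E18.5, 19 were higher and 6 lower, against 17.1% and 32.3%. The median difference over the collagen genes was 0.74 at E14.5 and 1.25 at E18.5, beside -0.06 and -0.14 over all genes. By library sizes alone, without scaling factors, the counts were 23 higher and 5 lower at E14.5 and 22 and 4 at E18.5. Of all 13344 genes tested, 2592 were then higher and 1684 lower at E14.5, and 6187 and 1811 at E18.5. This alternative was added after seeing the data, and it moved the median of all genes by 0.16 and 0.60.

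Col1a1, which encodes the main chain of type I collagen, was 5428, 6316 and 6041 CPM in muscle spots at E14.5 and 17011, 14557 and 18841 CPM in tendon-rich spots of the same sections. At E18.5 it was 7342 and 10494 CPM in muscle and 52307 and 64321 CPM in tendon-rich spots. The positions did not overlap at either stage, and the excess grew from 1.51 ± 0.14 (SE, adjusted p = 1.64e-05) to 2.72 ± 0.18 (adjusted p = 5.4e-07). Col12a1, a FACIT of dense connective tissue and of the junction between muscle and tendon, was 145.6 to 189.9 CPM in muscle at E14.5 against 612.5 to 806.2 CPM in tendon-rich spots. At E18.5 its muscle level was 170.2 and 197.8 CPM and its tendon-rich level 1314 and 1577 CPM, an excess of 2.97 ± 0.15 (adjusted p = 1.9e-07). Col11a1, a minor fibrillar chain that limits fibril width, rose from an excess of 1.88 ± 0.16 to 3.22 ± 0.20. Col5a3 was not called at either stage, and Col2a1 was not called at E18.5.

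Among called genes, the greatest excess at E14.5 was in genes known from cartilage. Col2a1 was 5.0, 8.0 and 7.5 CPM in muscle and 60.6, 65.9 and 131.9 CPM in tendon-rich spots (3.56 ± 0.90), and Col9a1 was 3.3, 6.4 and 5.3 CPM against 23.8, 58.9 and 19.99 CPM (2.84 ± 0.79). Col11a2 (2.30 ± 0.36) and Col9a3 (2.26 ± 0.59) followed. At E18.5 Col11a2 and Col11a1 led the called genes, with Col11a2 at 74.6 and 38.5 CPM in muscle and 450.1 and 558.1 CPM in tendon-rich spots (3.22 ± 0.29). Col8a2, a short-chain network collagen, had an excess of 1.998 ± 0.13 and 2.85 ± 0.15.

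At E14.5 8 genes were lower in tendon-rich spots. Col15a1, a multiplexin that links basement membrane to the surrounding matrix, was 65.9, 65.7 and 55.5 CPM in muscle and 49.8, 35.1 and 25.3 CPM in tendon-rich spots at E14.5, a difference of -0.74 ± 0.13 (adjusted p = 0.00087). At E18.5 it was 305.8 and 335.8 CPM in muscle and 122.2 and 151.0 CPM in tendon-rich spots, and the difference was -1.23 ± 0.12 (adjusted p = 6.78e-06). Col4a1, a type IV chain of basement membranes, was at -0.69 ± 0.12 at E14.5 and at -0.62 ± 0.14 at E18.5, and the later difference was -0.02 and not called by library sizes alone. Col4a2 was lower as well at E14.5, a call lost by library sizes alone (-0.34). Of the other type IV genes, Col4a5 was at 0.40 ± 0.27 and Col4a6 at 0.70 ± 0.57 at E14.5, neither of them called.

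Col20a1, a FACIT at a low level here, was at -1.54 ± 0.37 and -2.03 ± 0.45. Col19a1 and Col18a1 were lower at E14.5 (-0.92 ± 0.30 and -0.85 ± 0.18), although Col19a1 was not called by library sizes alone. Col26a1 was lower at both stages (-0.63 ± 0.08 and -1.20 ± 0.12), and Col23a1 at E18.5 (-1.10 ± 0.13). Col6a6 was lower at both stages too, but by library sizes alone both calls were lost (-0.34 and -0.23).

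The excess itself differed between stages for 13 genes, 11 of them greater at E18.5 and 2 smaller, where 5.22% and 12.6% of all genes tested were greater and smaller. Beside Col1a1, the greatest gains were in Col11a1 (1.34 ± 0.24), Col14a1 (1.27 ± 0.22), Col1a2 (1.26 ± 0.20) and Col6a3 (1.24 ± 0.16), and the losses were in Col23a1 and Col26a1. With library sizes alone 18 gained and 0 lost by edgeR (2 lost at an unadjusted p under 0.05), with the median of all genes moved by 0.44. Of all 13344 genes tested, 3381 gained and 535 lost under that scaling. The summed level of the tendon genes that defined the spots also moved, from 1146 to 1724 CPM at E14.5 to 5584 and 6439 CPM at E18.5, and its part in these differences was not tested.

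Within the muscle, edge spots (those with at least 1 of 6 neighbours classed as tendon-rich or other) were set against interior spots of the same section. A muscle spot beside only blank slide, spots left out or other muscle spots counted as interior. Of 37 genes tested, 18 were higher at the edge and 6 lower at E14.5, beside 6.99% and 7.83% of all genes, and 22 were higher and 7 lower at E18.5, beside 11.5% and 30.0%. The E14.5 count was 10 and 3 without control E14.5 replicate 2. Without scaling factors the counts were 19 and 4 at E14.5, beside 1287 and 703 of all 13595 genes tested. At E18.5 they were 24 and 0 by edgeR (1 lower at an unadjusted p under 0.05), beside 6332 and 954. The median of all genes moved by 0.41 at E18.5. Col12a1 was 183.2, 266.4 and 276.3 CPM at the edge and 97.4, 118.8 and 134.8 CPM in the interior at E14.5. At E18.5 it was 307.2 and 463.1 CPM against 118.8 and 125.2 CPM, a difference of 1.63 ± 0.10 (adjusted p = 1.58e-09). Col8a2 was higher at the edge by 1.20 ± 0.06 and 1.38 ± 0.07. The other genes with the greatest excess were Col9a1 (1.31 ± 0.35), Col9a3 (1.13 ± 0.26) and Col4a6 (1.09 ± 0.30) at E14.5 and Col6a5 (1.63 ± 0.24), Col11a1 (1.54 ± 0.09) and Col4a6 (1.47 ± 0.33) at E18.5. Col20a1 was lower at the edge at both stages (-0.81 ± 0.20 and -1.08 ± 0.27), and Col19a1 (-0.41 ± 0.12), Col4a1 (-0.37 ± 0.06) and Col18a1 (-0.31 ± 0.07) at E14.5. Col15a1 was lower at the edge at E18.5 (-0.47 ± 0.08), and so were Col23a1 (-0.39 ± 0.09) and Col4a1 (-0.36 ± 0.07), although without scaling factors Col4a1, Col4a2, Col6a6, Col23a1 and Col26a1 turned to the opposite sign there. Edge spots were 247, 203 and 70 of 549, 571 and 581 muscle spots in the E14.5 controls. At E18.5 they were 313 of 3092 and 202 of 2199. These spots can hold tissue from outside the muscle.

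**Figure D2:**
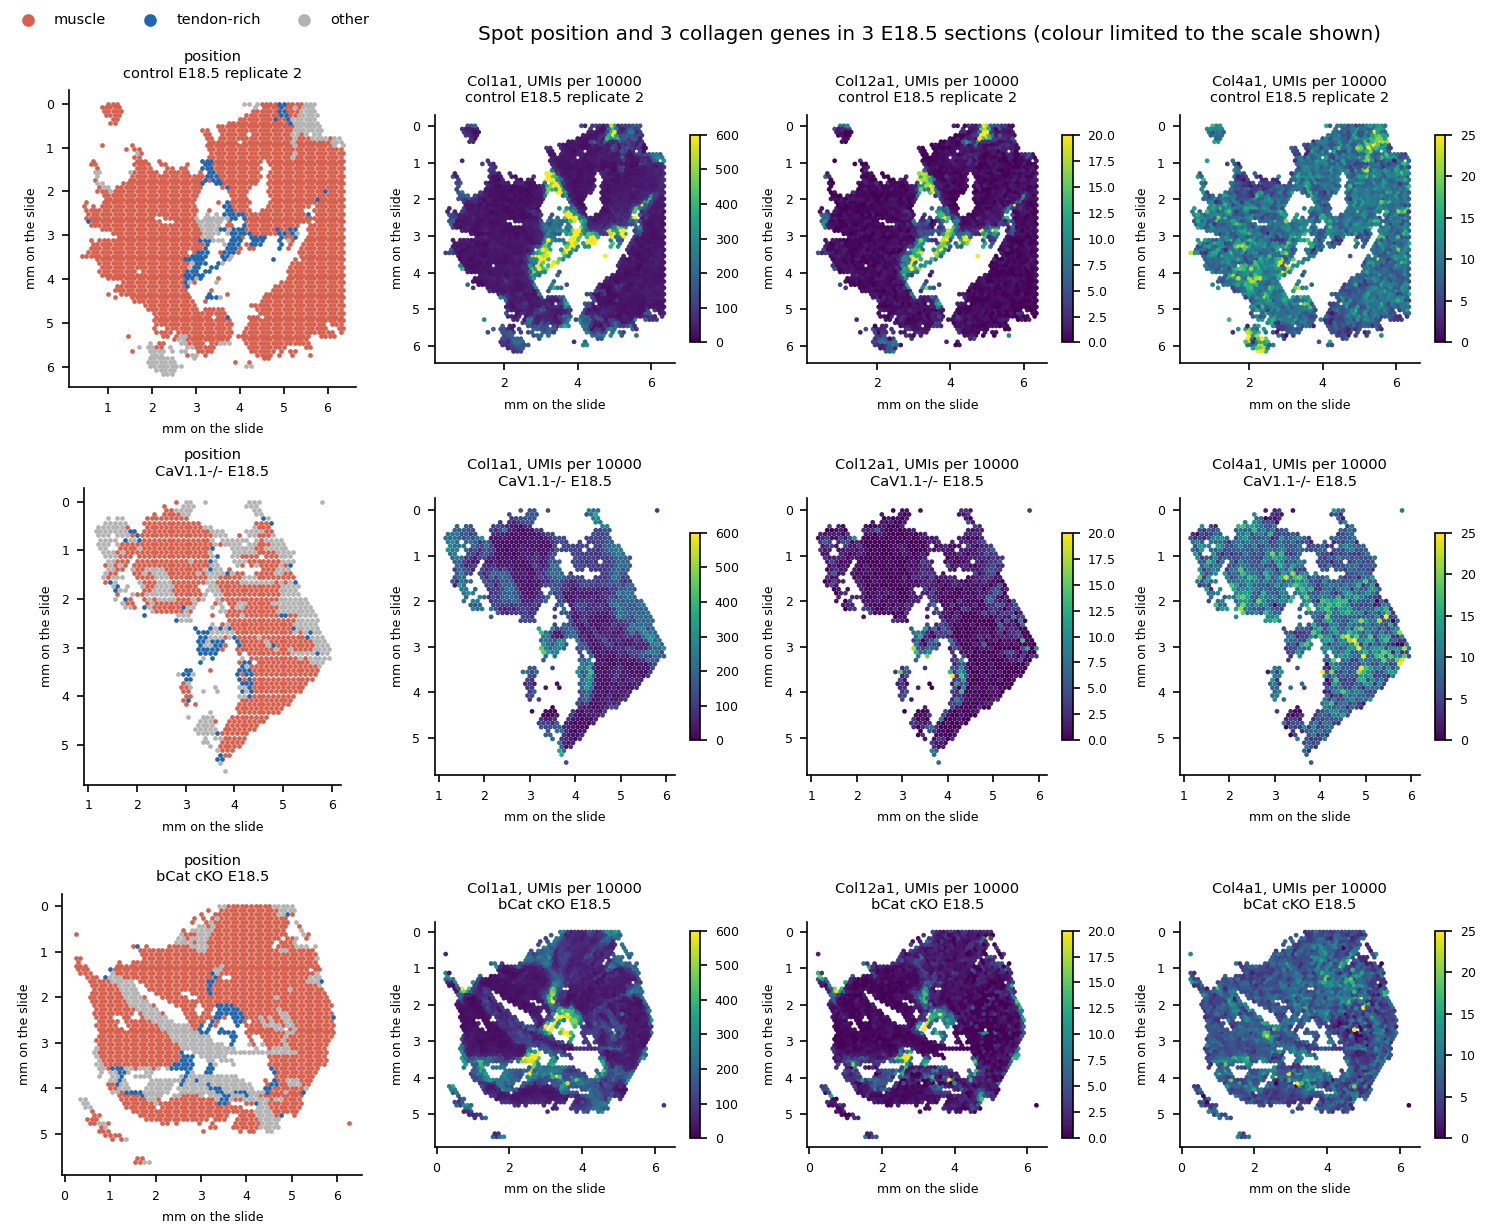
Maps of spots in control E18.5 replicate 2, CaV1.1-/- E18.5 and bCat cKO E18.5 (rows), with both axes in mm on the slide. The first column colours spots by position (red muscle, blue tendon-rich, grey other), and the others show Col1a1, Col12a1 and Col4a1 in UMIs per 10000, with colour limited to the scale drawn. In all 3 sections many of the spots highest in Col1a1 and Col12a1 lie along the inner border of the muscle, while Col4a1 is spread across it.

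The authors' Moran's I, a score of how much neighbouring spots resemble each other, had its highest medians over sections in type I and type III chains. Col1a1 had a median of 0.64 over the 8 sections (0.50 to 0.69), and Col3a1 and Col1a2 each had 0.57. Col5a2 followed at 0.52, then Col12a1 at 0.39 and Col11a1 at 0.37. Single sections differed from this order. Col2a1 was at 0.76 in control E18.5 replicate 1, where Col1a1 was at 0.58. In bCat cKO Col17a1 was at 0.61, above Col5a2 at 0.56.

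Between E14.5 and E18.5 most collagen genes rose in control tendon-rich spots. There 23 of 38 rose and 3 fell, beside 20.3% and 17.7% of all genes, with a median change of 0.98 against -0.01 over all genes. Scaled by library sizes alone, 19 rose and 3 fell, beside 1575 and 4647 of all 12965 genes tested. The median of all genes moved by -0.35. Col1a2, the second chain of type I collagen, was 8563, 7596 and 10213 CPM at E14.5 and 35141 and 53195 CPM at E18.5, so that every later section was above every earlier one (2.33 ± 0.23, adjusted p = 1.44e-05). Col6a3, which builds type VI filaments with Col6a1 and Col6a2, went from 634.5, 623.1 and 623.6 CPM to 2196 and 3599 CPM, again without overlap (2.21 ± 0.21, adjusted p = 1.13e-05). Col6a1 and Col6a2 rose by 1.98 ± 0.19 and 1.66 ± 0.19. Col3a1, the chain of type III collagen, was 10752, 11504 and 12021 CPM at E14.5 and 15242 and 15647 CPM at E18.5, a change of 0.43 ± 0.19 that did not pass the test.

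Some minor chains changed by more. Col5a3, a type V chain, was 0, 3.8 and 1.3 CPM at E14.5 and 46.3 and 49.97 CPM at E18.5 (4.50 ± 0.46, adjusted p = 1.68e-05). Col11a2 was 37.1, 15.5 and 27.98 CPM against 450.1 and 558.1 CPM (4.27 ± 0.27, adjusted p = 6.97e-07). For both genes each later section was above each earlier one. Col2a1, the fibrillar collagen of cartilage, was 60.6, 65.9 and 131.9 CPM against 790.8 and 1348 CPM. The summed cartilage markers went from 15.3 to 26.7 CPM at E14.5 to 232.0 and 302.8 CPM at E18.5. Most of that sum was Acan, at 8.5 to 10.7 CPM at E14.5 and 208.3 and 281.8 CPM at E18.5. Hapln1 and Cnmd stayed at or below 9.33 CPM in every control section. Without cartilage-rich spots the same numbers of genes rose and fell, 23 and 3. That step took out only 3 of 143 and 2 of 142 tendon-rich spots at E18.5 and 0 at E14.5. With so few spots removed, it cannot show the part of cartilage, which was not tested. Col4a4 had no UMI in the 3 sections at E14.5 and 29 UMIs at E18.5 (6.2 and 4.4 CPM), at least 13.3-fold higher against a floor of 3 counts over the earlier group.

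The 3 genes that fell were Col26a1, Col13a1 and Col9a2. Col26a1 was 205.5, 130.6 and 145.3 CPM at E14.5 and 30.3 and 27.2 CPM at E18.5 (-2.49 ± 0.22, adjusted p = 7.05e-06). Col13a1, a transmembrane collagen found at cell adhesions and at the neuromuscular synapse, was 216.3, 163.9 and 175.9 CPM against 72.6 and 93.3 CPM (-1.16 ± 0.18, adjusted p = 0.00035). Neither gene's stages overlapped. Col9a2, a FACIT of cartilage, fell by 0.58 ± 0.18 on the log2 scale.

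**Figure D3:**
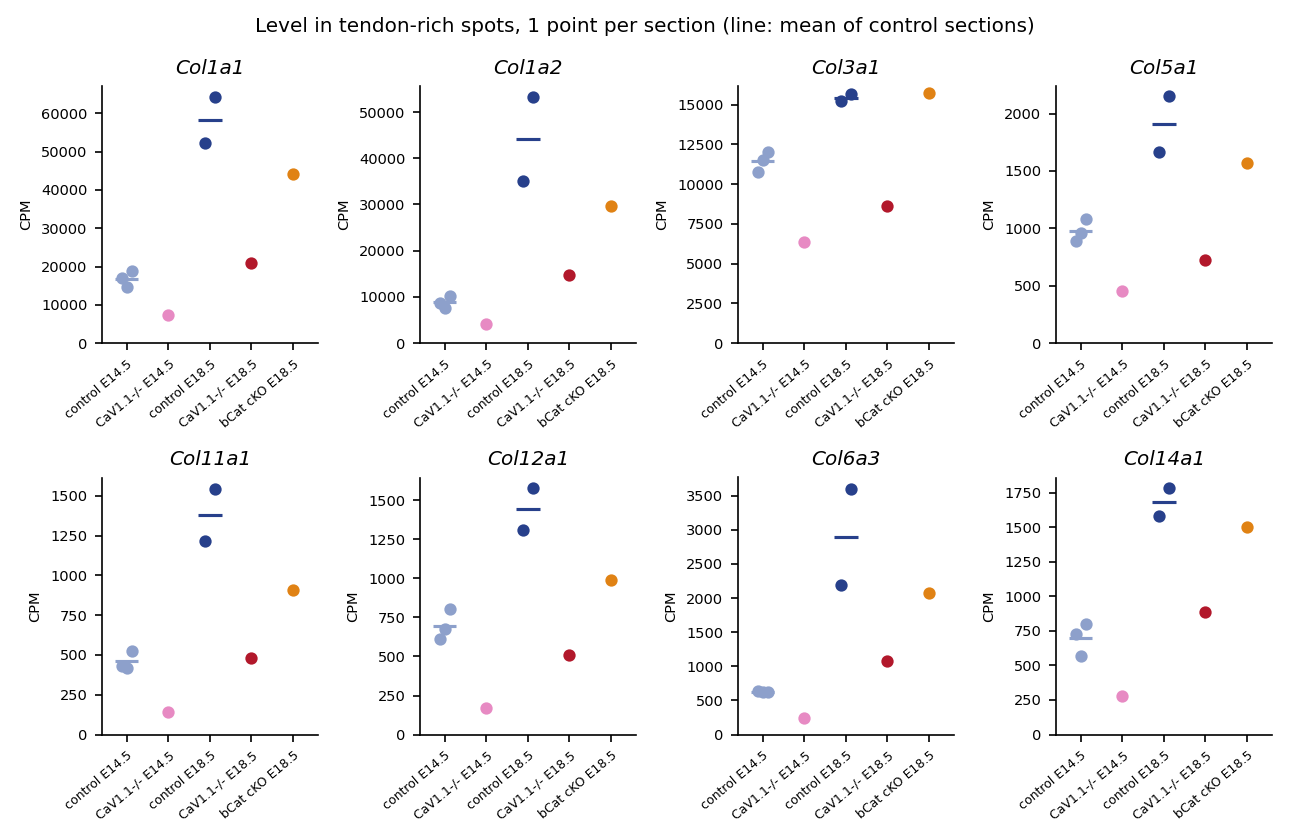
CPM of 8 collagen genes in tendon-rich spots (vertical axes from 0), 1 point per section, with a line at the mean of control sections, by group. Both CaV1.1-/- sections lie below every control section of their stage in all 8 panels, for example Col12a1 at 170.6 CPM against 612.5 to 806.2 CPM at E14.5. The 8 genes were picked for display, and others, such as Col27a1 and Col6a5 at E18.5, lay above their controls. In CaV1.1-/- Col3a1 was called at neither stage, Col1a2 not at E14.5 and Col14a1 not at E18.5.

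In muscle spots the direction of the stage change depended on the scaling. With TMM, 25 of 41 genes rose and 3 fell, beside 36.2% and 28.9% of all genes, and the median change was 0.78 against 0.07. By library sizes alone 11 rose and 15 fell, beside 2259 and 9033 of all 14832 genes tested. The median of all genes moved by -0.80. The 9 contractile genes took 20956 to 27532 CPM in muscle spots at E14.5 and 218155 and 224239 CPM at E18.5. Genes that rose under both scalings are therefore given first.

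Col15a1 was 65.9, 65.7 and 55.5 CPM at E14.5 and 305.8 and 335.8 CPM at E18.5 (2.36 ± 0.10, adjusted p = 1.53e-06). Col4a1 and Col4a2, the common type IV chains of every basement membrane, rose by 1.72 ± 0.12 and 1.42 ± 0.10. Col4a1 was 521.9, 465.2 and 431.1 CPM against 1462 and 1646 CPM, with no overlap. Col5a3 was 1.4, 2.2 and 1.7 CPM against 42.2 and 60.3 CPM (4.82 ± 0.22, adjusted p = 1.98e-06). Col23a1, a transmembrane collagen, was 28.2, 24.5 and 28.7 CPM against 74.6 and 81.8 CPM (1.53 ± 0.10, adjusted p = 8.97e-06). The summed endothelial markers in these spots went from 224 to 310 CPM at E14.5 to 757 and 680 CPM at E18.5. The part of vessels in these rises was not tested.

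Col1a1 in muscle was higher at E18.5 by 0.59 ± 0.17 with TMM but at -0.22 by library sizes alone, and Col6a2 (0.67 and -0.13), Col16a1 (0.78 and -0.03), Col5a1 (0.43 and -0.38), Col6a6 (0.43 and -0.38) and Col18a1 (0.42 and -0.39) turned in the same way. No direction is given for these 6. Col26a1 and Col19a1, a FACIT of basement membrane zones that is made by young muscle cells, fell. Col26a1 was 274.9, 226.7 and 234.7 CPM at E14.5 and 69.7 and 62.5 CPM at E18.5 (-1.89 ± 0.12). Col19a1 was 24.9, 18.6 and 20.02 CPM against 7.7 and 5.4 CPM (-1.69 ± 0.19, adjusted p = 0.00015). Col13a1 fell as well (-1.34 ± 0.21).

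The cartilage collagens differed widely between the 2 later sections. Col2a1 was 5.0, 8.0 and 7.5 CPM at E14.5 and 1361 and 71.5 CPM at E18.5 (6.70 ± 1.09), both above all earlier sections, and it stayed called at 3.38 without control E18.5 replicate 1. Col9a1 was 3.3, 6.4 and 5.3 CPM against 137.9 and 9.3 CPM (3.87 ± 0.93), and 0.90 without that section. Col9a3 turned from 2.40 ± 0.79 to -0.10 without it. The cartilage markers were at 57.7 CPM in replicate 1 and 18.9 CPM in replicate 2, and their part was not tested. Col4a4, a type IV chain, had 5 UMIs in the 3 earlier muscle sums and 32 and 136 UMIs in the later ones (4.79 ± 0.93).

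In CaV1.1-/- tendon-rich spots 5 of the 11 fibrillar genes were lower than in controls at E14.5 and 6 at E18.5, while of the 8 FACIT-group genes 2 were lower at E14.5, and 3 were lower and 1 higher at E18.5. Over all families at E14.5, 8 of 38 genes were lower than in controls and 2 higher, beside 1.29% and 1.24% of all genes, and the median was -0.61. At E18.5, 10 were lower and 3 higher, beside 1.6% and 2.01% of all genes, and the median was -0.70. By library sizes alone 8 were lower and 2 higher at E14.5, beside 139 and 176 of all 12965 genes tested. At E18.5 the counts were 10 and 4, beside 138 and 566.

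Col12a1 was 170.6 CPM in CaV1.1-/- at E14.5 against 612.5, 674.5 and 806.2 CPM in controls (-2.03 ± 0.27, adjusted p = 0.0016). At E18.5 it was 512.4 CPM against 1314 and 1577 CPM (-1.49 ± 0.27, adjusted p = 0.0089). Col11a1 was 142.4 CPM against 431.5, 420.6 and 526.4 CPM at the earlier stage (-1.68 ± 0.26) and 480.0 CPM against 1217 and 1544 CPM at the later (-1.52 ± 0.27). For both genes the mutant section was below every control section of its stage, and at E18.5 it was within or below the range of the E14.5 controls. Col1a1 was 7235 CPM at E14.5 (-1.21 ± 0.29, adjusted p = 0.049) and 20912 CPM at E18.5 (-1.48 ± 0.31, adjusted p = 0.020), Col5a1 was lower by 1.12 ± 0.26 and 1.40 ± 0.27, and Col6a3 by 1.40 ± 0.30 and 1.42 ± 0.31.

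Col24a1, a minor fibrillar chain, was 2.7 CPM at E14.5 against 13.3, 11.8 and 13.3 CPM (-2.22 ± 0.42, adjusted p = 0.015). At E18.5 it was 6.3 CPM against 19.0 and 25.7 CPM, which did not pass the test (adjusted p = 0.061). The lowest relative to controls at E18.5 were 3 genes known from cartilage. Col2a1 was 48.3 CPM against 790.8 and 1348 CPM (-4.47 ± 0.52), and Col11a2 was 32.5 CPM against 450.1 and 558.1 CPM (-3.95 ± 0.44). Col9a1 was 2.38 CPM, from only 3 UMIs in the mutant section, against 66.0 and 30.5 CPM (-4.32 ± 1.04). The summed cartilage markers there were 23.8 CPM against 232.0 and 302.8 CPM, mostly from Acan (18.2 CPM against 208.3 and 281.8 CPM). Col16a1, a FACIT-related chain, was 312.8 CPM against 746.0 and 1315 CPM (-1.72 ± 0.36). Col9a1 and Col9a3 at E14.5 were 62.02 and 96.4 CPM, above every control without passing the test. Col27a1, a fibrillar chain that was lower at E14.5 (-1.11 ± 0.23), was 171.1 CPM at E18.5 against 134.6 and 125.3 CPM (0.40 ± 0.23). Col3a1 was 6385 CPM at E14.5 and 8630 CPM at E18.5, below its controls at each stage, but its differences of -0.84 ± 0.25 and -0.84 ± 0.27 did not pass the test.

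A few genes were higher. Col6a5, a type VI chain, was 40.4 CPM at E18.5 against 2.9 and 6.2 CPM (3.13 ± 0.45, adjusted p = 0.0025), and Col26a1 was 101.4 CPM against 30.3 and 27.2 CPM (1.82 ± 0.29, adjusted p = 0.0043). Col20a1 was 13.5 CPM against 1.5 and 2.2 CPM, from 17 UMIs in the mutant section. At E14.5 Col4a5 was 33.6 CPM against 14.8, 12.8 and 8.0 CPM (1.39 ± 0.28, adjusted p = 0.019). Col4a4 had 14 UMIs in the mutant and none in the controls, at least 7.22-fold higher against a floor of 3 counts over the group.

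Other values moved with these differences. The summed tendon genes were 353 CPM in CaV1.1-/- tendon-rich spots at E14.5, where controls held 1146 to 1724 CPM. At E18.5 they were 1609 CPM, where controls held 5584 and 6439 CPM. The spots themselves were thus less rich in tendon transcripts. The E14.5 sum lay within the 173 to 421 CPM of other spots in controls. In those mutant spots Tnmd (31.7 CPM) and Thbs4 (11.7 CPM) were below control muscle spots (47.8 to 62.3 and 52.3 to 73.3 CPM), while Scx, Mkx and Fmod were above them. The E14.5 comparison may therefore set unlike spots against each other. Hepatocyte genes reached 11349 CPM in the E18.5 section against at most 659 CPM in its controls. Mesothelium genes were 179 CPM in the E14.5 section against 73 to 98 CPM, and 505 CPM in the E18.5 section against 326 and 158 CPM. The part of these tissues was not tested. The E14.5 calls were not stable. With tendon-rich spots defined by Scx and Antxr1, which took in 248 spots of the mutant section in place of 129, edgeR called 0 of 41, while 16 lower and 2 higher had an unadjusted p under 0.05. Without control E14.5 replicate 3, the section with the fewest tendon-rich spots, 3 were left. At E18.5 the same definition gave 12 lower and 3 higher, without control E18.5 replicate 2 it was 6 lower and 2 higher, and without the liver-rich and keratin-rich spots, a choice made after seeing the data, 8 were lower and 2 higher.

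CaV1.1-/- muscle at E14.5 differed from controls in 2 of 41 collagen genes, 1 higher and 1 lower, beside 0.6% and 1.62% of all genes. Col19a1 was 45.7 CPM against 24.9, 18.6 and 20.02 CPM (1.11 ± 0.21, adjusted p = 0.047). Col18a1, a multiplexin of basement membranes, was 36.4 CPM against 63.1, 64.3 and 65.4 CPM (-0.82 ± 0.12, adjusted p = 0.020). Without control E14.5 replicate 3 edgeR called 0, while 3 higher and 9 lower had an unadjusted p under 0.05, and without replicate 2 it called 1. DESeq2 on all sections gave 1 higher and 9 lower, beside 162 and 569 over all genes. Library sizes alone gave 1 and 4, beside 94 and 261 of all 14832 genes tested.

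At E18.5, 6 of 41 genes were higher in CaV1.1-/- muscle and 10 lower, beside 8.37% and 19.5% of all genes. With library sizes alone 13 were higher and 2 lower, beside 7245 and 752 of all 14832 genes tested. The median of all genes moved by 0.62. The contractile genes were 79025 CPM in this section against 218155 and 224239 CPM. The 6 higher genes were called under both scalings.

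Col20a1 was 36.4 CPM against 7.1 and 7.9 CPM in E18.5 controls (2.27 ± 0.17, adjusted p = 0.00071), and it stayed between 6.8 and 8.0 CPM in all 4 sections at E14.5. Markers of Schwann cells, the glia of peripheral nerve, were 119 CPM in this section and 43.8 and 45.2 CPM in its controls. Macrophage genes were 417 CPM against 180 and 239 CPM. In other spots Schwann markers were 71.3 CPM against 62.7 and 91.6 CPM, where Col20a1 was 15.4 CPM against 2.31 and 2.40 CPM. The part of these cell types in the Col20a1 values was not tested. In muscle spots Col6a5 was 18.8 CPM against 2.4 and 4.0 CPM (2.55 ± 0.30, adjusted p = 0.0018). Col19a1 was 27.7 CPM against 7.7 and 5.4 CPM (2.07 ± 0.24, adjusted p = 0.0017), above both controls and near the 18.6 to 24.9 CPM of E14.5 controls. Col13a1 (1.104 ± 0.26), Col8a2 (0.75 ± 0.20) and Col26a1 (0.55 ± 0.14) were higher as well.

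Among the lower genes, Col18a1 was 41.9 CPM against 91.9 and 79.6 CPM (-1.03 ± 0.12, adjusted p = 0.0019) and was called under both scalings, as was Col2a1, whose controls differed as given above. Col15a1 was 185.1 CPM against 305.8 and 335.8 CPM and Col4a1 was 972.2 CPM against 1462 and 1646 CPM. By library sizes alone Col15a1 (-0.79 to -0.18) and Col4a1 (-0.68 to -0.06) were no longer called and Col4a2 turned from -0.61 to 0.01. Col5a1, Col5a3, Col6a3, Col11a2 and Col12a1 also lost their call there.

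The CaV1.1-/- difference itself was more positive at E18.5 than at E14.5 for 3 genes in muscle and more negative for 0 by edgeR (5 at an unadjusted p under 0.05), beside 2.19% and 7.62% of all genes. These were Col6a5 (2.24 ± 0.44), Col20a1 (2.19 ± 0.25) and Col24a1 (1.56 ± 0.35), the last of which was at -1.20 ± 0.26 at E14.5 and 0.36 ± 0.24 at E18.5. DESeq2 gave 3 and 2, beside 552 and 1030 over all genes. Library sizes alone gave 14 and 0, beside 4407 and 248 of all 14832 genes tested. Without control E14.5 replicate 3 the count was 0, without replicate 2 it was 1, and without control E18.5 replicate 2 it was 8.

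**Figure D4:**
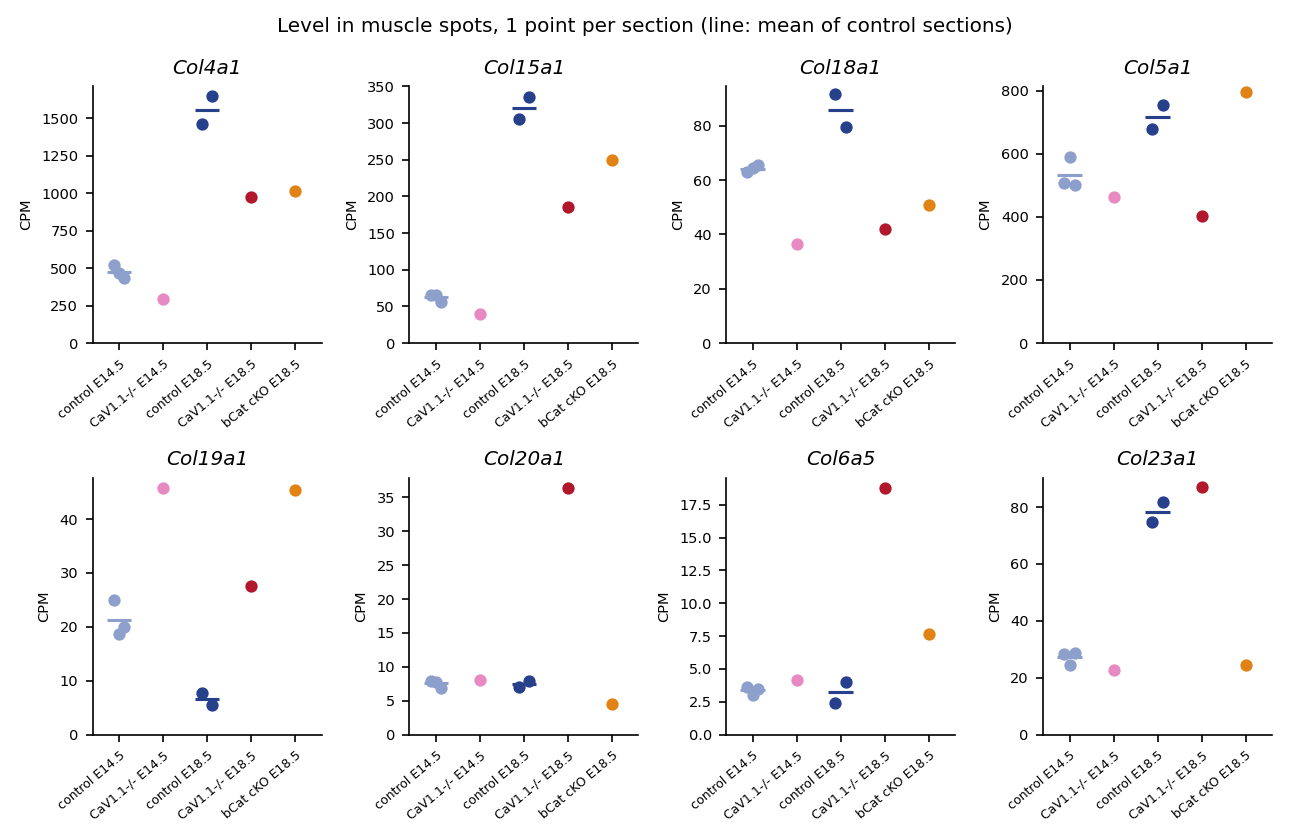
CPM of 8 collagen genes in muscle spots (vertical axes from 0), 1 point per section, with a line at the mean of control sections, by group. Col20a1 stands at 36.4 CPM in CaV1.1-/- E18.5 and at 4.4 to 8.0 CPM in the other 7 sections, and Col23a1 in bCat cKO E18.5 (24.5 CPM) is level with the E14.5 controls.

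The bCat cKO section was compared with the same 2 E18.5 controls as CaV1.1-/-, so the 2 comparisons are not independent. In muscle 5 of 41 genes were higher and 4 lower, beside 3.18% and 6.63% of all genes. Library sizes alone gave 6 and 3, beside 2258 and 568 of all 14832 genes tested. Col19a1 was 45.4 CPM against 7.7 and 5.4 CPM (2.79 ± 0.23, adjusted p = 0.0018). Col23a1 was 24.5 CPM against 74.6 and 81.8 CPM (-1.67 ± 0.14, adjusted p = 0.0020), where CaV1.1-/- was at 87.2 CPM. Col26a1 was 122.4 CPM against 69.7 and 62.5 CPM (0.89 ± 0.14). The other 3 higher genes were low in controls. Col17a1, a transmembrane collagen of the hemidesmosome in skin, was 8.4 CPM against 0.22 and 1.03 CPM (3.76 ± 0.68), Col7a1, the anchoring fibril collagen of skin, was 2.8 CPM against 0.67 and 0.73 CPM (2.01 ± 0.50), and Col6a5 was 7.6 CPM against 2.4 and 4.0 CPM (1.25 ± 0.30). The keratin genes Krt5 and Krt14, a list chosen after the values were seen, summed to 30.9 CPM there and to 6.2 and 25.6 CPM in controls. Krt5 was 15.5 CPM against 0 and 0.03 CPM, while Krt14 was 15.5 CPM, between its controls (6.2 and 25.6 CPM). The part of these keratins was not tested. Col18a1 was lower at 50.8 CPM (-0.75 ± 0.12), Col11a2 was 18.2 CPM against 74.6 and 38.5 CPM, and Col20a1 was 4.4 CPM against 7.1 and 7.9 CPM, a call lost by library sizes alone.

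In tendon-rich spots of bCat cKO 2 of 38 genes were higher and 0 lower by edgeR (6 lower at an unadjusted p under 0.05), beside 0.602% and 0.524% of all genes, and DESeq2 gave 1 higher and 1 lower. Without control E18.5 replicate 1 edgeR called 0 (5 higher and 10 lower at an unadjusted p under 0.05), and without replicate 2 it called 1. Col1a1 was 44289 CPM (-0.40 ± 0.29), Col12a1 990.7 CPM (-0.54 ± 0.26) and Col11a1 908.8 CPM (-0.60 ± 0.26), all below both controls without passing the test. The 2 called genes were Col6a5, at 20.5 CPM against 2.9 and 6.2 CPM, and Col17a1. Col17a1 had 57 UMIs in this section and none in the controls, at least 42.5-fold higher against a floor of 3 counts over the group. The keratin genes summed to 83.1 CPM in these spots and to 28.1 and 7.35 CPM in controls. Krt5 was 52.8 CPM against 0 and 0 CPM, and Krt14 was 30.3 CPM against 28.1 and 7.35 CPM.

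Alongside the collagens, 48 genes of collagen synthesis, processing, cross-linking, breakdown and binding were counted. In control tendon-rich spots 25 of 45 rose from E14.5 to E18.5 and 2 fell, beside 20.3% and 17.7% of all genes. Lox, which cross-links collagen, was 48.3, 70.9 and 50.6 CPM at E14.5 and 629.6 and 1035 CPM at E18.5 (3.85 ± 0.24). Pcolce2, an enhancer of propeptide cleavage, was 1.4, 3.8 and 6.7 CPM against 146.3 and 119.0 CPM (5.35 ± 0.29). Serpinh1, the collagen chaperone, rose by 1.20 ± 0.20. In CaV1.1-/- tendon-rich spots 5 of 45 were lower at each stage, beside 1.29% and 1.6% of all genes lower at E14.5 and E18.5. P4ha3, a subunit of the enzyme that hydroxylates collagen proline, was lower at E18.5 (-1.95 ± 0.31, adjusted p = 0.0043), whereas Lox (-1.19 ± 0.32, adjusted p = 0.063) and Serpinh1 (-0.85 ± 0.28, adjusted p = 0.13) did not pass the test.

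**Figure D5:**
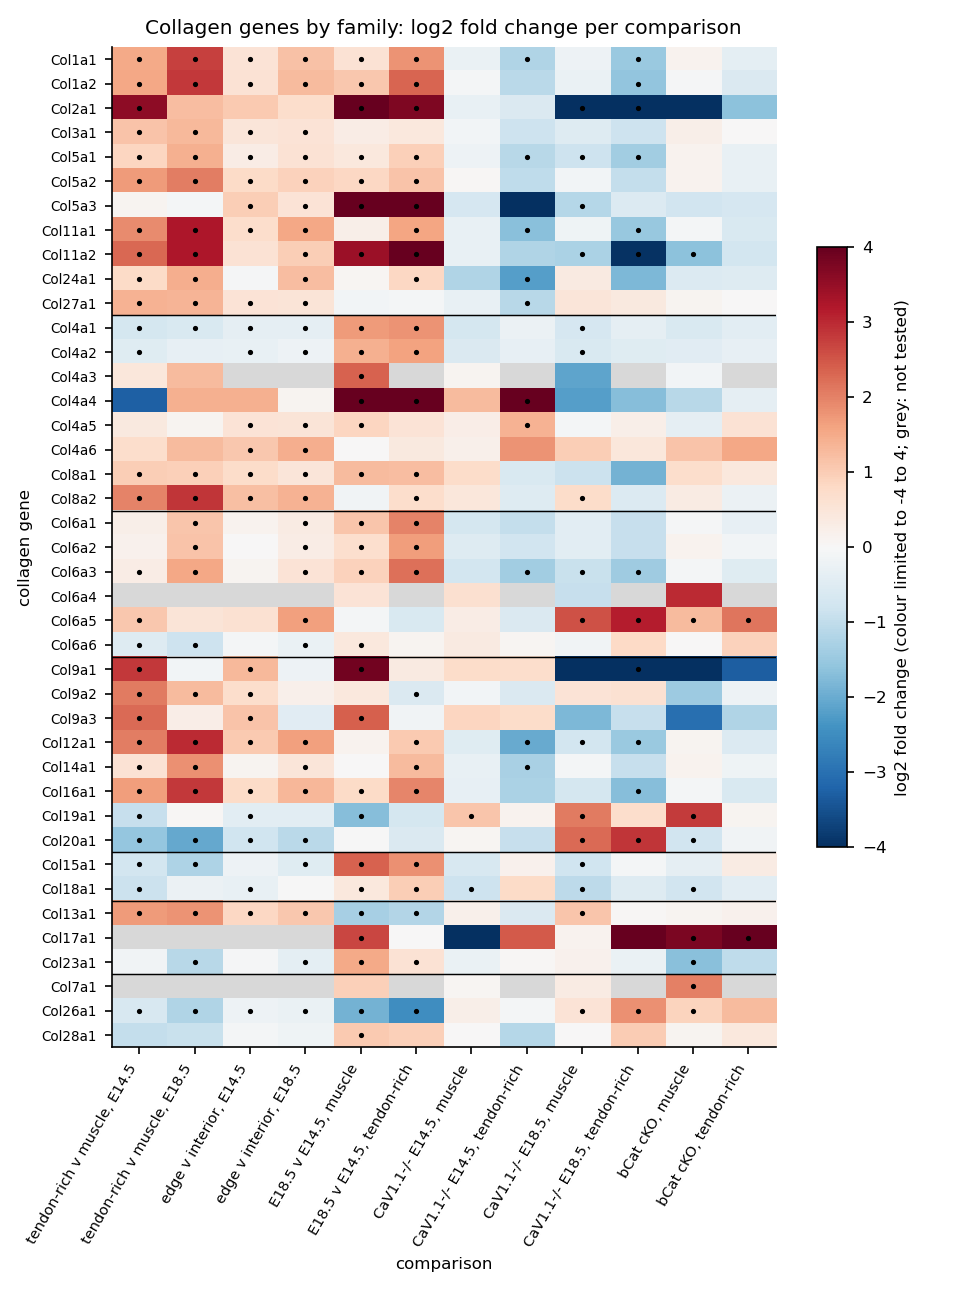
Log2 fold change of the 41 tested collagen genes (rows, with lines between families) in 12 comparisons (columns), with red higher and blue lower in the group named first. Colour is limited to -4 and 4, dots mark an adjusted p under 0.05 and grey cells were not tested. Most fibrillar rows are red in tendon-rich against muscle spots, and most are blue in CaV1.1-/- tendon-rich spots. Fitted values of genes at 0 UMIs in a group, such as Col4a4 and Col17a1, depend on the prior count.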

How the data were processed

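Per the labels and the study's methods, embryo trunks were kept in paraformaldehyde, and diaphragms were then dissected, embedded in paraffin and cut en face into 5 µm sections. Probe pairs on each transcript were captured on Visium slides with 55 µm spots at 100 µm spacing. The authors used Space Ranger on mm10, and deposited per section a matrix of UMI counts for 19465 genes, tables of spot positions and a Moran's I score per gene. The authors also deposited their processing notes naming Seurat, which was not needed here. Probes differ between genes, so levels of different genes were not tested against each other. They were ranked only to choose the named genes, and added into shares and marker sums. Spots with at least 1000 UMIs were kept. In each section, Otsu thresholds of the mean log level of 9 contractile genes, then of 5 tendon genes among the remaining spots, set the positions. UMIs were summed per section and position, giving 24 sums that shared TMM factors, and edge and interior sums were scaled on their own.

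Tests used edgeR 4.0.16 quasi-likelihood fits (filterByExpr, Benjamini-Hochberg over all genes tested) with all 8 sections in 5 groups, or controls with section as a block for comparisons between positions. SEs were taken from the fold change and its F. Spots share an embryo and were never replicates. Whether replicate sections came from separate litters is not given in the sources used here, so p-values measure the spread between these sections. Alternatives were DESeq2 1.42.0, other scalings and filters, other spot definitions, each control section left out and a replicate block. The control stage comparison in muscle, and tendon-rich against muscle and edge against interior at E14.5, were checked on simulated data. The mutant comparisons were not. Collagen genes, families, marker lists and the machinery list were chosen with earlier results of these data known. Genes were named by a rule that took up to 3 with the highest level in each family and up to 4 called genes with the greatest rise and fall in each comparison, and most are given by section or by their difference. Scaling by library sizes alone (except edge against interior) and the removal of liver-rich and keratin-rich spots were added after seeing the data. Other spots were given as values with no test. Floors are 3 counts over a group and cover counting error only.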

Additional observations from a re-analysis of the deposited data

Results flagged for a closer look

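Genes whose difference between groups itself differed, by an interaction term in edgeR, are given first, in differences of log2 fold changes. The CaV1.1-/- difference in muscle was more positive at E18.5 than at E14.5 for Col6a5 (2.24), Col20a1 (2.19) and Col24a1 (1.56). Col24a1 was 3.4 CPM in the E14.5 mutant section against 6.8 to 9.3 CPM in controls, and 10.4 CPM in the E18.5 mutant section against 7.5 and 8.8 CPM, so the mutant sections lay on opposite sides of their controls. Its difference was called at neither stage taken alone. Of the 3 calls of this change, 0 held under every alternative.

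The excess of tendon-rich over muscle spots was greater at E18.5 for Col11a1 (1.34), Col14a1 (1.27), Col1a2 (1.26), Col6a3 (1.24), Col1a1 (1.21), Col16a1 (1.15), Col6a2 (0.97), Col12a1 (0.92), Col6a1 (0.86), Col8a2 (0.85) and Col5a1 (0.54), and smaller for Col26a1 (-0.58) and Col23a1 (-0.97). The 3 type VI genes Col6a1, Col6a2 and Col6a3 were all in this list.

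Spots outside muscle and tendon were in no comparison, and 4 genes had at least 50 UMIs and over 5 times the level of the highest control section of their stage there in a mutant section. Others were above their controls by less, such as Col6a5 at 57.9 CPM in CaV1.1-/- and 66.4 CPM in bCat cKO against 25.2 and 23.5 CPM. In CaV1.1-/- E18.5 Col20a1 was 15.4 CPM against 2.31 and 2.40 CPM in controls. In bCat cKO Col17a1 was 177 CPM against 1.03 and 1.20 CPM, Col6a4 was 23.6 CPM against 0 and 2.40 CPM, and Col7a1, the anchoring fibril collagen of skin, was 11.9 CPM against 0.51 and 0.96 CPM. Krt5 and Krt14, keratins of stratified epithelium, summed to 493 CPM in those spots and to 44.0 and 20.4 CPM in controls. Krt5 was 368 CPM against 0 and 0 CPM, and Krt14 was 125 CPM against 44.0 and 20.4 CPM. The part of these keratins in the collagen levels was not tested, and the mutant groups held 1 section each.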

How the results depend on the processing

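Of 229 calls, 103 kept their call and direction under every alternative run. The count of collagen genes called stayed within 1.5 times its main value for the stage comparisons under all alternatives, including the replicate block among controls (25 in muscle and 26 in tendon-rich spots), but the sign of the muscle changes did not. By library sizes alone, Col18a1 (-0.39), Col5a1 (-0.38), Col6a6 (-0.38), Col1a1 (-0.22), Col6a2 (-0.13) and Col16a1 (-0.030) reversed between stages in muscle and Col4a2 (0.0064) in CaV1.1-/- E18.5 muscle, because the scaling factors were removed. Without scaling factors at the E18.5 edge, Col4a2 (0.21), Col26a1 (0.14), Col6a6 (0.14), Col4a1 (0.049) and Col23a1 (0.017) reversed. With each control section left out in turn, Col9a3 ranged from -0.10 (without control E18.5 replicate 1) to 3.26 between stages in muscle, and Col11a2 from -0.10 (without control E18.5 replicate 2) to 2.12 at the E18.5 edge.

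Counts that moved by more than 1.5 times were these, and the cause was not tested. CaV1.1-/- E14.5 muscle went from 2 to 10 by DESeq2, 8 without the filter on low counts, 5 by library sizes alone, and 1 with TMM within the fit or in interior spots. CaV1.1-/- E14.5 tendon-rich spots went from 10 to 5 in the higher-scoring spots and 0 by Scx and Antxr1. The change of the CaV1.1-/- difference in muscle went from 3 to 5 by DESeq2 and 14 by library sizes alone. In bCat cKO, muscle went from 9 to 5 in interior spots, and tendon-rich spots from 2 to 4 with RLE, without the filter, or without liver-rich and keratin-rich spots, to 5 by Scx and Antxr1 and to 1 in the higher-scoring spots. Without the section block the E14.5 edge fell from 24 to 0 (11 higher and 4 lower at an unadjusted p under 0.05), the E18.5 edge fell from 29 to 14, and the stage difference of the tendon-rich excess from 13 to 7. By DESeq2, with the section block kept, the E14.5 edge fell from 24 to 15.

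Leaving out 1 control section at a time gave 27 to 28 calls between stages in muscle and 23 to 25 in tendon-rich spots. CaV1.1-/- gave 0 to 3 and 17 to 18 in muscle, and 3 to 12 and 8 to 12 in tendon-rich spots, at E14.5 and E18.5. It gave 0 to 8 for the change of that difference, and bCat cKO gave 8 to 12 in muscle and 0 to 1 in tendon-rich spots. Tendon-rich against muscle gave 20 to 24, 26 to 28 and 11 to 15 for the change, and the edge 13 to 19 and 25 to 29.

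Deviations of same-numbered control sections from their stage means had correlations of -0.25 and -0.29, 2 pairs in all. With 2 sections at E18.5 these deviations mirror each other (correlation -1), so the values cannot show whether replicate numbers pair the sections. The block is therefore given as a count only. Each mutant value rests on 1 section, and tendon-rich spots number 44 to 143 per section, which limits low genes most.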

Other observations

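In spots outside muscle and tendon the collagen share of UMIs was 2.44%, 3.397% and 3.41% in E14.5 controls and 4.63% and 5.53% in E18.5 controls. CaV1.1-/- was at 2.07% and 4.43% at the 2 stages and bCat cKO at 4.604%. The mutant sections lay below both or all controls of their stage, with no test. Col1a1, Col1a2 and Col3a1 made up most of the share in each section.

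Macrophage genes in muscle spots were 180 and 239 CPM in E18.5 controls, 417 CPM in CaV1.1-/- and 340 CPM in bCat cKO, while fibroblast genes were 1428 and 1700 CPM, 792 CPM and 1501 CPM. Endothelial genes there were 757 and 680 CPM in E18.5 controls, 407 CPM in CaV1.1-/- and 452 CPM in bCat cKO. At E14.5 they were 224 to 310 CPM in controls and 159 CPM in CaV1.1-/-. Col6a5 was above both controls in both mutant sections as well. The parts of these cell types in the collagen values were not tested.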
